A study of Caenorhabditis elegans with 2 samples.

Results

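The regions described here are the peaks of tagged UNC-42 on chromosome V of Caenorhabditis elegans, set apart as peaks of the chromosome arms and peaks of its centre. A peak is a stretch of the genome where immunoprecipitated DNA was enriched, and its summit is the base of highest enrichment. Members were the entries on chromosome V in the optimal set of peaks after filtering by the irreproducible discovery rate (IDR), a measure of how well peak ranks repeat between replicates. They numbered 678 of the 4780 optimal peaks of the genome, or 14.2%. The chromosome was split by length into 3 equal segments on the ce11 build. The left arm ran from base 1 to 6974726, the right arm from 13949454 to 20924180 and the centre from 6974727 to 13949453. By the position of their summits, 336 peaks lay in the arms, 180 on the left and 156 on the right, and 342 lay in the centre. The split into arms and centre used position alone, while the optimal set itself rests on the signal ranks that IDR compares, with a lowest signal of 81.6 over the genome.

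Chromatin immunoprecipitation with sequencing (ChIP-seq) had been carried out on whole late embryos of strain OP173, hermaphrodites collected 3 hours after synchronisation by bleaching of eggs. The strain is a transgenic line that stably expresses UNC-42 fused at its C terminus to GFP and FLAG. By the description of the samples, chromatin was recovered with an antibody against GFP. The antibody entry of the labels names unc-42 instead, and the description was followed here. Both samples, labelled biological replicates 1 and 2, belonged to the same single group, so no condition was compared. The embryos were not dissected, so each value is a mixture of all their cells. No embryos without the tag were analysed here, so binding of UNC-42 itself cannot be told apart from enrichment that any tagged protein would give.

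The protein UNC-42 carries a homeodomain and, as a transcription factor, is known for its part in fixing the identity of sensory neurons, interneurons and motor neurons. Homeodomains bind short AT-rich sites, often with the core TAAT. The autosomes of C. elegans have arms that recombine often and carry more repeats and more members of large, quickly changing gene families, and centres that recombine rarely and carry more conserved genes. The arms and centre described here are equal segments by length and were not drawn from recombination rates. Their boundaries need not match those of the recombining arms. Chromosome V is known for its many tandem arrays of chemoreceptor genes, which encode receptors for odours and tastes.

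The sequences under 8 summits are shown because the later results turn on them. Each is the forward strand of ce11, 5′ to 3′, 50 bases to each side of the summit, read from the RefSeq sequence of that assembly. All letters are printed in lower case except marked stretches, so case in this print does not show repeats. The strongest peak of each segment comes first. In the left arm it was the peak at mrck-1, chrV:6267573-6267673. In the right arm it was the peak at F31D4.8, chrV:20873267-20873367, whose window ends in a run of 10 CA repeats. In the centre it was the peak at T28B11.1, chrV:10721478-10721578. Then come, for the right arm and the centre, the strongest peak whose printed window, 50 bp to each side of the summit, holds a pair of facing homeodomain cores, TAATNNNATTA, which is marked in capitals. These lay at tpan-1 in the right arm, chrV:20789120-20789220, and at E02A10.3 in the centre, chrV:12583553-12583653. The last 3 are the strongest peaks of their segments whose printed window holds the repeat GAGAGAGA on either strand, also in capitals, and they lay at pqn-51 in the left arm, chrV:5049463-5049563, at aipl-1 in the right arm, chrV:15136894-15136994, and at sphr-1 in the centre, chrV:9194219-9194319.
mrck-1: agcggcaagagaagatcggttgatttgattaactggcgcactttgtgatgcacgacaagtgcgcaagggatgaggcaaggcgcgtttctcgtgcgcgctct
F31D4.8: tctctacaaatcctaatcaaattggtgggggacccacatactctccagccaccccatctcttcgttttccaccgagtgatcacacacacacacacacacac
T28B11.1: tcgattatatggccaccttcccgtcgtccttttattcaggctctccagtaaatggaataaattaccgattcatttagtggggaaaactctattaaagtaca
tpan-1: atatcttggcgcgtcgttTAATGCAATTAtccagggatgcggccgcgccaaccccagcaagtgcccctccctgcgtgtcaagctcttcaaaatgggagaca
E02A10.3: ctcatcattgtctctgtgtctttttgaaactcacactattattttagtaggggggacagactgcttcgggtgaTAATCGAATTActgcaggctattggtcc
pqn-51: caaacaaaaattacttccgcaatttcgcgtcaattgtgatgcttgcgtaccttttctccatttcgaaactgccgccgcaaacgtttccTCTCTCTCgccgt
aipl-1: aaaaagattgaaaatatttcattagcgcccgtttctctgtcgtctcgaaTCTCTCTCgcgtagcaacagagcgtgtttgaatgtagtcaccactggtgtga
sphr-1: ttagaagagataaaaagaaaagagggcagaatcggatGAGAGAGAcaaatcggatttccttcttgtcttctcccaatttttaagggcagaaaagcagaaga

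Peaks were sparser in the arms than in the centre of chromosome V. The arms held 24.1 peaks per Mb (95% exact Poisson interval 21.6 to 26.8) and the centre 49.0 per Mb (44.0 to 54.5), a ratio of 0.491. The left arm had 25.8 peaks per Mb (22.2 to 29.9) and the right arm 22.4 (19.0 to 26.2), so the intervals of the 2 arms overlapped and neither reached that of the centre. In the arms lay 49.6% of the peaks (exact Clopper-Pearson interval 45.7 to 53.4%), against 66.7% of the chromosome's length. That share was below the share of length, with an adjusted p of 7.07e-19 in a two-sided exact binomial test, adjusted by the Benjamini-Hochberg method over 12 tests. The test treats peaks as independent and describes these 2 samples only.

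Each replicate gave the same order. Among the 4780 entries of highest signal in the replicate 1 list, 339 summits lay in the arms and 343 in the centre of chromosome V, which is 24.3 and 49.2 per Mb. In the replicate 2 list taken in the same way, 329 lay in the arms and 343 in the centre, which is 23.6 and 49.2 per Mb. The density ratios were thus 0.494 and 0.480, a spread far smaller than the distance of either from 1.

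The arms had fewer peaks per gene as well as per base. They held 229 starts of protein-coding genes per Mb and the centre 258 per Mb. Per 100 gene starts there were 10.5 peaks in the arms and 19.0 in the centre, a ratio of 0.553, with 0.556 in replicate 1 and 0.540 in replicate 2. The arms carried 64.0% of the chromosome's gene starts, and their 49.6% of the peaks was below that share as well (two-sided exact binomial test, adjusted p = 7.56e-14).

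Repeats differed between the segments too. Lower-case letters, which mark repeats and low-complexity stretches in the RefSeq sequence, made up 37.4% of the bases in the arms and 27.0% in the centre. Summits fell in lower-case sequence in 18.8% of arm peaks and 18.7% of centre peaks. Outside lower-case sequence the density was 31.3 summits per Mb in the arms and 54.6 in the centre, a ratio of 0.572. The part of repeats in the difference was not tested further than by that ratio.

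Lists that reach down to weaker regions were spread more evenly than the optimal set. The pooled list made as input for IDR, which holds background regions as well as peaks, had 172 entries per Mb in the arms and 193 in the centre, a ratio of 0.890. That list holds strong regions too, so 0.890 is not a value for weak regions alone. In the same kind of list for each replicate the ratio was 0.874 for replicate 1 and 0.769 for replicate 2. Optimal peaks were 14.0% as many as pooled relaxed entries in the arms (12.7 to 15.5%) and 25.4% in the centre (23.1 to 27.8%). Over all relaxed pooled entries the median signal was 34.6 in the arms and 44.1 in the centre. Signal here is the value that the authors' caller attached to a peak, and its scale differs from list to list.

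Chromosome V had the lowest density of peaks of the 6 nuclear chromosomes in both segments, as the arms of the others ran between 35.6 and 60.02 per Mb and their centres between 52.6 and 69.1. Its ratio of arms to centre, 0.491, was also the lowest, next to 0.538 on chromosome II, and the ratios of the other chromosomes were not tested against it. Chromosomes I, III and IV had ratios of 0.741, 0.737 and 0.676, and the share of their peaks in the arms was below that of length on each (adjusted p of 3.87e-05, 0.000101 and 6.43e-07 in the exact binomial test). On X the ratio was 1.05 (adjusted p = 0.615, exact binomial test). Per gene start the picture divided the autosomes. Chromosome V at 0.553 and II at 0.605 (adjusted p = 5.85e-11, exact binomial test) kept a shortfall in the arms. Chromosomes I, III and IV came to 0.966, 0.995 and 0.923 per gene start, with adjusted p of 0.682, 0.94 and 0.385 in the exact binomial test. X had 1.16 times as many peaks per gene start in its outer segments (adjusted p = 0.0332, exact binomial test).

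**Figure D1:**
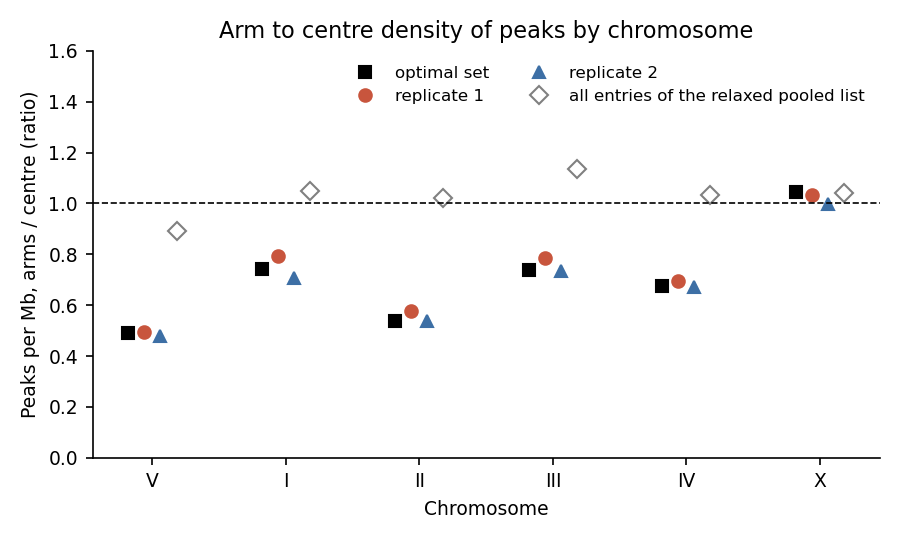
Ratio of peaks per Mb, arms over centre, for chromosome V and the other nuclear chromosomes. Squares are the optimal set, filled circles and triangles the 4780 highest entries of replicate 1 and replicate 2, and open diamonds all entries of the relaxed pooled list, and the dashed line marks equal density. Chromosome V stands at 0.491 in the optimal set and 0.890 in the relaxed list, below the other chromosomes in both.

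Along the chromosome the peaks of the arms were clustered. In 30 equal bins of 697 kb, 10 per segment, arm bins held 3 to 43 peaks with a median of 11, and centre bins held 16 to 50 with a median of 33.5. The ranges overlapped. Of the 20 arm bins, 5 held 30 or more peaks and together held 173 of the 336 arm peaks, or 51.5%. The other 15 arm bins held 3 to 22 peaks. In the centre 7 of 10 bins held 30 or more. Over the 30 bins, counts of replicate 1 and replicate 2 had a Spearman correlation of 0.966, given as a description since neighbouring bins are not independent.

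The densest arm bin, from 5.58 to 6.28 Mb in the left arm, held 43 peaks, with 43 in replicate 1 and 37 in replicate 2. Its strongest peaks lay at mrck-1, at vps-37, which encodes a subunit of the ESCRT sorting machinery, and at mcp-1. The next, just right of the centre from 13.9 to 14.6 Mb, held 35, led by a peak 16 bp upstream of trm-1, a tRNA methyltransferase gene. Dense bins also lay near both chromosome ends. The bin from 0.697 to 1.39 Mb held 32 peaks, led by those at sqv-6 and cmd-1, and the last bin, from 20.2 to 20.9 Mb, held 33, led by those at F31D4.8 and hif-1. These bins and their genes were chosen after their values were seen. The emptiest bin, from 16.7 to 17.4 Mb in the right arm, held 3 peaks in the optimal set, 3 in replicate 1 and 4 in replicate 2, with 47 chemoreceptor genes.

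**Figure D2:**
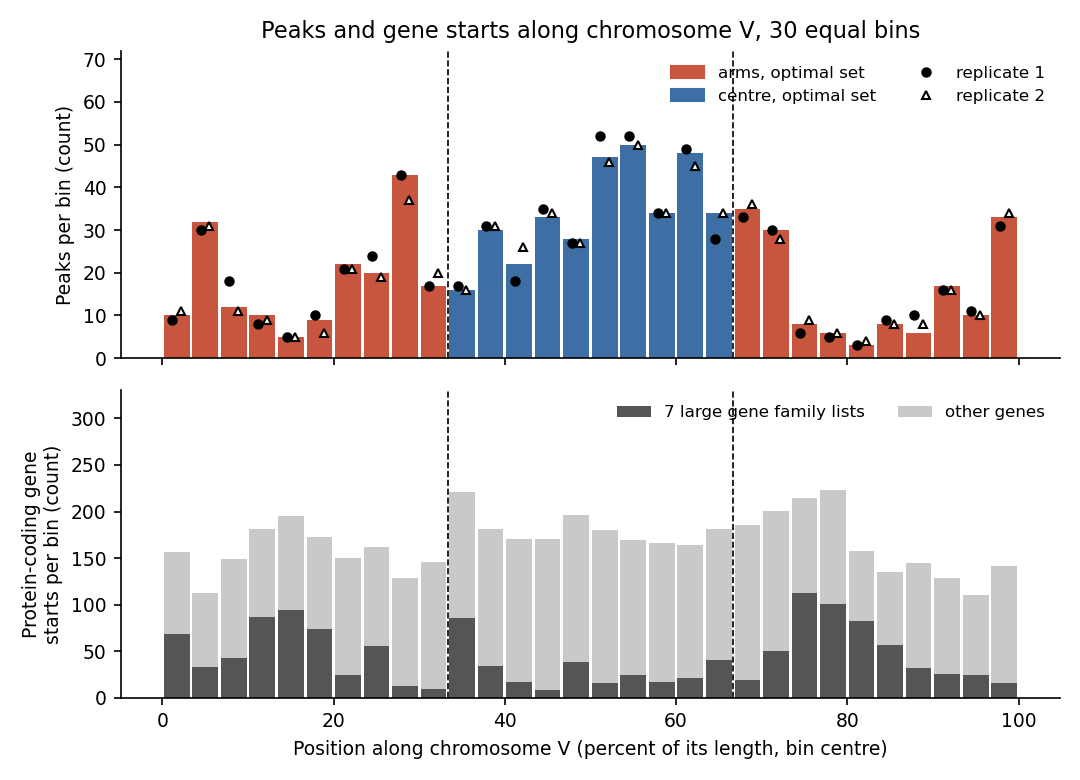
Peaks (upper panel) and starts of protein-coding genes (lower panel) in 30 bins of 697 kb, by position as a percentage of the length of chromosome V. Bars show the optimal set, circles and triangles the replicates, and dashed lines the segment boundaries. Arm bins range from 3 to 43 peaks and centre bins from 16 to 50, and the bins richest in family genes hold few peaks.

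Most bins poor in peaks held many genes of large families. Chemoreceptors, F-box proteins, C-type lectins, nuclear hormone receptors, BTB and MATH domain proteins, cytochrome P450 enzymes and UDP-glucuronosyltransferases were counted together as 7 family lists. They made up 1023 of the 3196 protein-coding genes of the arms, or 32.0%, and 302 of the 1798 of the centre, or 16.8%. Among the 20 arm bins, the 5 with 30 or more peaks held 13 to 50 family genes with a median of 19, and the other 15 held 10 to 112 with a median of 57. As a description across bins, which share libraries and neighbours, the Spearman correlation of peaks with family genes was -0.717 over 30 bins, -0.730 over the 20 of the arms and -0.320 over the 10 of the centre. With all gene starts it was -0.0353 over the chromosome, -0.321 within the arms and -0.676 within the centre. With genes outside the families it was 0.696 over the chromosome, 0.530 within the arms and 0.00608 within the centre. With lower-case bases it was -0.495 over the chromosome, -0.0256 within the arms and -0.188 within the centre. Some sparse bins did not follow the families. From 18.1 to 20.2 Mb in the right arm, 3 bins held 6, 17 and 10 peaks with 32, 26 and 25 family genes. Of their bases, 44.5 to 48.0% were in lower case. In the left arm, the bin from 6.28 to 6.97 Mb held 17 peaks with 10 family genes and 28.0% lower case. That from 4.18 to 4.88 Mb held 22 with 25 and 41.4%. The dense bin from 0.697 to 1.39 Mb, with 32 peaks and 33 family genes, had 45.9% lower case. The part of repeats in these counts was not tested.

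The 8 longest stretches between neighbouring summits on chromosome V all lay in the arms. The longest ran 782 kb in the right arm, between summits at 16965844 and 17747634. It spanned 173 gene starts, of which 84 belonged to the families and 63 of those to chemoreceptors. It also held 63 entries of the relaxed pooled list, and no entry among the 4780 highest of either replicate. The next, 625 kb of the left arm between summits at 2827057 and 3451862, spanned 177 gene starts with 82 chemoreceptors, and held 0 of the highest entries of replicate 1 and 2 of replicate 2. Not every long gap was rich in families: the eighth, 232 kb of the right arm between 18492116 and 18723755, spanned 31 gene starts with 3 family genes. Gaps above 100 kb numbered 39 in the arms, covering 7908 kb of their 13.9 Mb, and 9 in the centre, covering 1292 kb of its 6.97 Mb. The median gap was 11573 bp in the arms and 7924 bp in the centre.

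Within each segment the peaks were not level either. Cut into 6 equal parts, the chromosome had 19.8 peaks per Mb in the outer left arm, 31.8 in the inner left arm, 37.0 and 61.1 in the left and right parts of the centre, 23.5 in the inner right arm and 21.2 in the outer right arm. Family genes made up 40.9% and 23.4% of gene starts in the parts of the left arm, 37.1% and 23.6% in the inner and outer right arm, and 19.5% and 13.8% in the left and right centre. At the boundaries, the last summit of the left arm was at 6893900, 80826 bp inside, with a signal of 98.5, and the first of the centre was 85792 bp inside, with 108. On the other side, the first summit of the right arm was 12795 bp inside with a signal of 131, and the last of the centre was 35899 bp inside with 96.9.

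A smaller share of genes had a peak in the arms than in the centre. A gene was counted when its 5′ end was the nearest protein-coding 5′ end to a summit and within 2000 bp of it. By that rule 171 of 3196 genes in the arms had a peak, 5.35% (exact interval 4.60 to 6.19%), against 175 of 1798 in the centre, 9.73% (8.40 to 11.2%). Over all nuclear chromosomes 12.5% of protein-coding genes had a peak, so both segments of chromosome V were below that background. Replicate 1 gave 178 genes in the arms and 186 in the centre, and replicate 2 gave 170 and 178. The left arm had 92 of 1554 genes with a peak, 5.92%, and the right arm 79 of 1642, 4.81%. No test was made between these shares, and the intervals cover counting error only.

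Genes of the 7 family lists seldom had a peak in either segment. There were 9 of 1023 in the arms, 0.880% (0.403 to 1.66%), and 2 of 302 in the centre, 0.662% (0.0803 to 2.37%), with 1.95% over the genome. Among all other genes, 162 of 2173 in the arms had a peak, 7.46% (6.39 to 8.64%), against 173 of 1496 in the centre, 11.6% (9.99 to 13.3%). Their replicate values were 7.69% and 7.46% in the arms against 12.3% and 11.8% in the centre, so the order of the segments was the same with the families set aside. The ratio of peaks to gene starts without those families was 0.676, against 0.553 with them. Over all genes the median upstream stretch was 1102 bp in the arms and 974 bp in the centre. Outside the families it was 1134 bp and 960.5 bp. The part of upstream length in the difference was not tested.

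**Figure D3:**
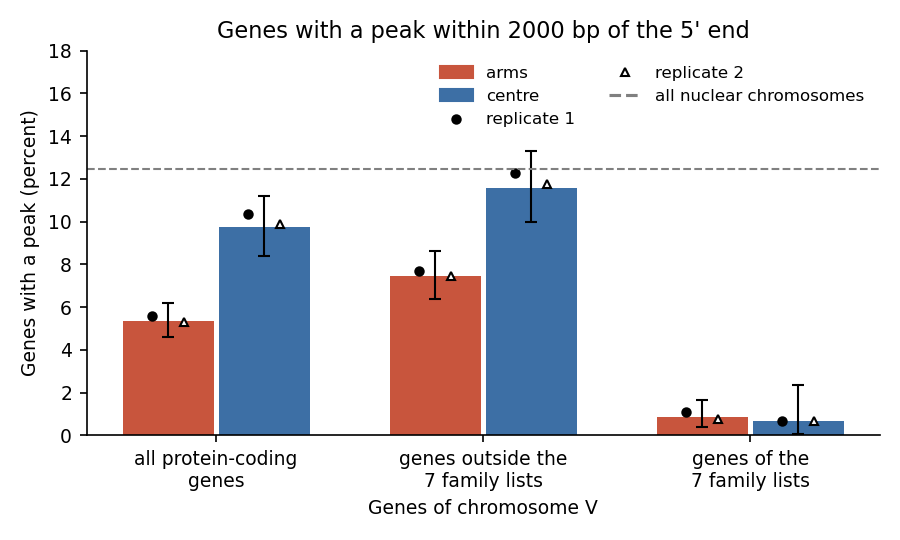
Percentage of protein-coding genes of chromosome V with a peak within 2000 bp of the 5′ end, arms beside centre, for all genes, for genes outside the 7 family lists and for genes of those lists. Bars are the optimal set with 95% exact Clopper-Pearson intervals, circles and triangles the replicates, and the dashed line the 12.5% of all nuclear genes. The arms lie below the centre for all genes (5.35% and 9.73%) and for genes outside the families (7.46% and 11.6%), and both are under 1% for the families.

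Among chemoreceptors, 2 of 690 genes of the arms and 1 of 209 genes of the centre had a peak. The arm genes were str-56, in the right arm, with a summit 1397 bp past the gene's start and a signal of 266 (132 in replicate 1 and 134 in replicate 2), and srg-55, at 121 (53.0 and 63.0). The centre gene was srh-16, with a summit 77 bp upstream and a signal of 129 (51.3 and 76.6). The summit counted for str-56 lay past the gene's end and not in its promoter. Of the arm chemoreceptors replicate 1 alone gave 5 genes and replicate 2 gave 3.

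Nuclear hormone receptors, a family of ligand-dependent transcription factors that is expanded in nematodes, had a peak at 4 of 126 arm genes and at 0 of 41 centre genes. All 4 were in the left arm. The summit at nhr-47 lay 8 bp upstream with a signal of 140 (60.9 in replicate 1 and 78.7 in replicate 2), and that at nhr-228 57 bp upstream with 93.2 (31.5 and 65.0). The peaks at nhr-158 and nhr-256 had signals of 88.6 (36.1 and 53.3) and 85.3 (40.3 and 38.5). Apart from nhr-47 these were near the lower end of the optimal set, whose lowest signal was 81.6. On its highest entries alone, replicate 1 gave 2 of the receptors of the arms and replicate 2 gave 3.

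The other families held single genes. In the arms 1 of 85 F-box genes, fbxa-153, had a peak, with a signal of 214 (95.6 in replicate 1 and 120 in replicate 2), and 1 of 33 cytochrome P450 genes, cyp-35A4, had one at 83.6 (43.8 and 38.5). The centre had 0 of 2 F-box and 0 of 8 cytochrome P450 genes. C-type lectins had a peak at 0 of 69 genes in the arms and 0 of 17 in the centre. UDP-glucuronosyltransferases had one at 0 of 19 and 0 of 23. The BTB and MATH list had bath-36 as its only arm gene, with a peak at 109, and bath-39 as 1 of 2 centre genes, at 204.

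Genes of neurons were few in each segment. The counts of the lists that follow stand beside 5.35% of all genes with a peak in the arms and 9.73% in the centre, and none was tested. Genes for axon guidance and cell adhesion had a peak at 4 of 6 in the arms and 1 of 5 in the centre, beside 46.8% of that list over the genome. The arm genes were unc-76, a fasciculation factor of the FEZ family, unc-70, which encodes beta-spectrin, unc-51, a kinase needed for axon growth, and madd-2, a TRIM protein in axon and muscle arm guidance. The centre gene was fmi-1, the Flamingo cadherin. The 2 strongest summits at unc-76 had signals of 304 (135 in replicate 1 and 168 in replicate 2) inside an intron and 298 (132 and 163) just upstream. The peak at unc-51 had 172 (98.5 and 80.3) and that at madd-2 86.8 (38.5 and 47.5).

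Beta-spectrin supports the membrane of axons, and unc-70 had the most peaks within 2000 bp of its 5′ end among the genes of the chromosome. Those 4 summits had signals of 263, 155, 148 and 115. In replicate 1 they had 124, 71.1, 80.9 and 63.3, and in replicate 2 149, 82.7, 64.9 and 95.0, so the strongest was first in both. Of these summits, 2 shared a single enriched region, 1714 bp upstream at the stronger one, in annotated non-coding RNA genes. Within the same 2000 bp no gene of the centre had more than 3, and those with 3, named after their counts were seen, were mig-17, a secreted metalloprotease gene of cell migration, and vps-60, of the ESCRT machinery. At both genes, 2 of the 3 summits lay in peak intervals that overlap. The mig-17 summit 1142 bp upstream had no matching entry in replicate 1. Genes with 2 or more peaks within that distance numbered 25 of 3196 in the arms and 30 of 1798 in the centre. Genes with any such peak numbered 171 and 175.

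The list for synaptic and dense-core vesicles also holds channel genes, such as slo-1, which counts among the potassium channels below too. Its genes had a peak at 3 of 6 in the arms and 2 of 5 in the centre, beside 62.1% over the genome. In the arms they were unc-80, part of the NALCN sodium leak channel complex, with a signal of 210 (94.0 in replicate 1 and 112 in replicate 2), slo-1, the large-conductance potassium channel, at 177 (77.2 and 101), and ric-7, needed for neuropeptide release, at 108 (34.2 and 78.9). The centre genes were egl-3, the proprotein convertase that cleaves neuropeptide precursors, at 417 (198 and 218), and unc-41, a stonin of vesicle recycling, at 165 (73.3 and 93.9). The egl-3 peak lay 1214 bp upstream and ranked 194 in the genome.

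Receptors for neuropeptides and amines had a peak at 3 of 13 in the arms, npr-13, dmsr-7 and npr-5, with signals between 89.6 and 131, and at 3 of 14 in the centre, npr-25, dmsr-1 and dop-5, between 84.8 and 164, beside 22.7% of the list over the genome. Potassium channels had one at 2 of 12 in the arms, slo-1 and twk-36, and at 1 of 10 in the centre, kvs-3, beside 19.2% over the genome. Ligand-gated ion channels had one at 0 of 12 in the arms and 1 of 10 in the centre, beside 15.4% over the genome. That gene was glr-5, a glutamate receptor subunit, with a summit 133 bp upstream and a signal of 315 (129 in replicate 1 and 190 in replicate 2). Neuropeptide genes had none, 0 of 16 in the arms and 0 of 7 in the centre, beside 8.57% over the genome.

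Homeobox and other neuron identity factors had a peak at 0 of 11 in the arms and at 4 of 13 in the centre, beside 20% over the genome. The centre genes were ceh-24, an NK-2 class homeobox gene, at 182 (97.9 in replicate 1 and 88.6 in replicate 2), ceh-32, of the sine oculis class, at 176 (76.2 and 90.0), ztf-9 at 94.4 (38.3 and 56.9) and hlh-34. Replicate 1 alone gave 1 arm gene and 2 centre genes, and replicate 2 gave 0 and 4, so these small counts moved with the replicate used. The gene unc-42 itself lies in the centre, at 9764534 to 9769391, and its nearest summit was 26808 bp away, at 9796199.

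Over the genome 22% of body wall muscle genes had a peak. On chromosome V they had one at 2 of 5 in the arms, unc-60, an actin depolymerising factor, at 186 (88.3 in replicate 1 and 93.4 in replicate 2) and unc-112, a kindlin, at 157 (57.6 and 106). In the centre 2 of 6 had one, the actin genes act-2 and act-3, at 156 (68.1 and 84.9) and 105 (54.0 and 54.6). Ribosomal protein genes gave rpl-38, 1 of 5 in the arms, at 354 (128 and 221), and rpl-39, 1 of 3 in the centre, at 121 (50.3 and 73.3), beside 46.8% over the genome. Collagens had a peak at 0 of 7 in the arms and 1 of 24 in the centre, col-157, beside 6.41% over the genome. Histones had one at 0 of 4 in the arms and 1 of 23 in the centre, his-37, beside 5.56%. Heat shock genes had none, of 4 in the arms and 5 in the centre, beside 17.4%. Counts this small give no order between the segments.

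The strongest peak of the chromosome was in the left arm. It lay 336 bp upstream of mrck-1, which encodes a kinase that acts on the actomyosin cytoskeleton in embryo shaping, within annotated non-coding RNA genes. Its signal was 947 in the pooled list, 412 in replicate 1 and 533 in replicate 2, and it ranked 10 of all optimal peaks, 13 in replicate 1 and 9 in replicate 2. The next in the arms was 4888 bp upstream of F31D4.8 at 649 (290 in replicate 1 and 358 in replicate 2), so the mrck-1 summit stood well above all the rest of chromosome V.

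Among the 10 strongest peaks of the arms were 2 at hif-1, the transcription factor of the response to low oxygen. One lay in an intron with a signal of 559 (256 in replicate 1 and 305 in replicate 2) and the other 2067 bp upstream with 537 (214 and 331). Also among them were peaks 1600 bp upstream of sqv-6, a glycosaminoglycan synthesis gene, at 583 (252 and 326), and 5831 bp upstream of cmd-1, calmodulin, at 505 (247 and 259). The remaining 5 lay at F32D1.3, C01G10.7, R12G8.1, Y47A7.2 and F31D4.8, between 493 and 649. The arms were evenly represented, with 5 of the 10 on each side.

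In the centre the strongest peak was in an intron of T28B11.1 at 605 (266 in replicate 1 and 339 in replicate 2), ranked 59. It was followed by one in an intron of fmi-1, 5696 bp past the start, at 594 (269 and 329). The third was near bir-1, a survivin homologue of cell division, at 529 (240 and 293), 2810 bp upstream and within non-coding RNA genes. Others of the centre's 10 lay at somi-1, a zinc finger gene, at 502, at zipt-9, of a zinc transporter family, at 499, and at F58H1.5, C16D9.6, tos-1, C15C8.5 and T02E9.5, between 444 and 503. The 10 of the arms ranged from 493 to 947 and the 10 of the centre from 444 to 605, so the ranges overlapped.

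Optimal peaks of the arms and of the centre had much the same signal. The median was 135 in the arms (quartiles 105 and 205, range 81.7 to 947) and 143 in the centre (105 and 211, range 81.8 to 605), a ratio of 0.942. The left arm had a median of 131, the right arm 137, and all optimal peaks 138. For peaks found in both replicate lists, the medians were 62.7 in the arms and 64.3 in the centre in replicate 1, and 76.5 and 78.4 in replicate 2. The small lead of the centre depended on the choice of peaks, because the ratio was 1.01 when intergenic summits alone were used and 1.01 with arms drawn as the outer 25% on each side. The likeness holds for peaks that passed IDR, none of which was below 81.6. In the relaxed pooled list, without that cut, the medians were 34.6 in the arms and 44.1 in the centre, with upper quartiles of 51.2 and 84.1.

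By rank the order also changed with the cut-off. Of the 100 strongest optimal peaks of the genome, 7 were in the arms and 3 in the centre of chromosome V. Of the 500 strongest, 30 were in the arms and 44 in the centre. In the upper part of all optimal peaks split evenly by signal lay 160 arm peaks, 47.6% (42.2 to 53.1%), and 185 centre peaks, 54.1% (48.7 to 59.5%), and those intervals overlapped. Arms had the higher median on all 5 other chromosomes, 137 to 145 in their arms against 132 to 136 in their centres, differences that were not tested.

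**Figure D4:**
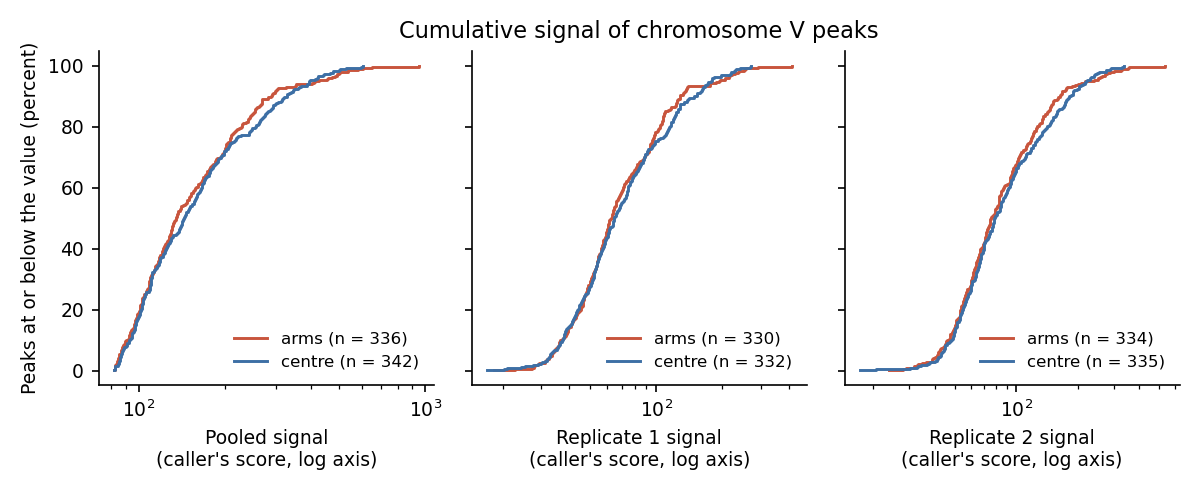
Cumulative percentage of chromosome V optimal peaks at or below each signal, in the pooled list and at the same peaks in replicate 1 and replicate 2, on log axes, arms in red and centre in blue. The curves nearly coincide, with pooled medians of 135 in the arms and 143 in the centre, and the longest upper tail belongs to the arms.

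Peaks of the segments were found again in the replicates at like rates. High rates were set in advance, because IDR kept peaks whose ranks repeat between these same replicates. They are a description and no separate support for the peaks of either segment. Of the arm summits, 328 of 336, 97.6% (95.4 to 99.0%), lay within 100 bp of an entry in both replicate lists, and of the centre summits 325 of 342, 95.0% (92.2 to 97.1%). Within the 4780 highest entries of both replicates lay 264 of the arms, 78.6% (73.8 to 82.8%), and 259 of the centre, 75.7% (70.8 to 80.2%). In each segment 9 peaks were among the highest of neither replicate.

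The shares of summits in intergenic sequence and in introns, the 2 largest classes, were alike in arms and centre. Intergenic sequence held 195 of the arm summits, 58.0% (52.6 to 63.4%), and 194 of the centre's, 56.7% (51.3 to 62.0%), while it made up 33.0% and 34.6% of the bases. Introns held 100 in the arms, 29.8% (24.9 to 35.0%), and 86 in the centre, 25.1% (20.6 to 30.1%), near their share of bases, 30.6% and 25.7%. Coding exons held 1 arm summit, at C25D7.9, chosen after its value was seen, and 9 of the centre, although they made up 24.6% and 30.3% of the bases. The replicate lists gave 1.18% and 0.912% in coding exons of the arms, and 3.50% and 2.33% in those of the centre.

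The lower density of the arms held within the main classes. Intergenic sequence had 42.3 summits per Mb in the arms and 80.5 in the centre, and introns had 23.4 and 47.9. Genes of other biotypes, such as non-coding RNA genes, held 27 summits in the arms, 8.04% (5.36 to 11.5%), and 35 in the centre, 10.2% (7.23 to 13.9%). Such genes took up 7.60% of the bases of the arms but 3.80% of those of the centre. Their density of summits was thus 25.5 per Mb in the arms and 132 in the centre. The 2 arms differed in this class. The left arm had 17 summits at 40.9 per Mb, with 5.96% of its bases, and the right arm 10 at 15.5 per Mb, with 9.25%.

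**Figure D5:**
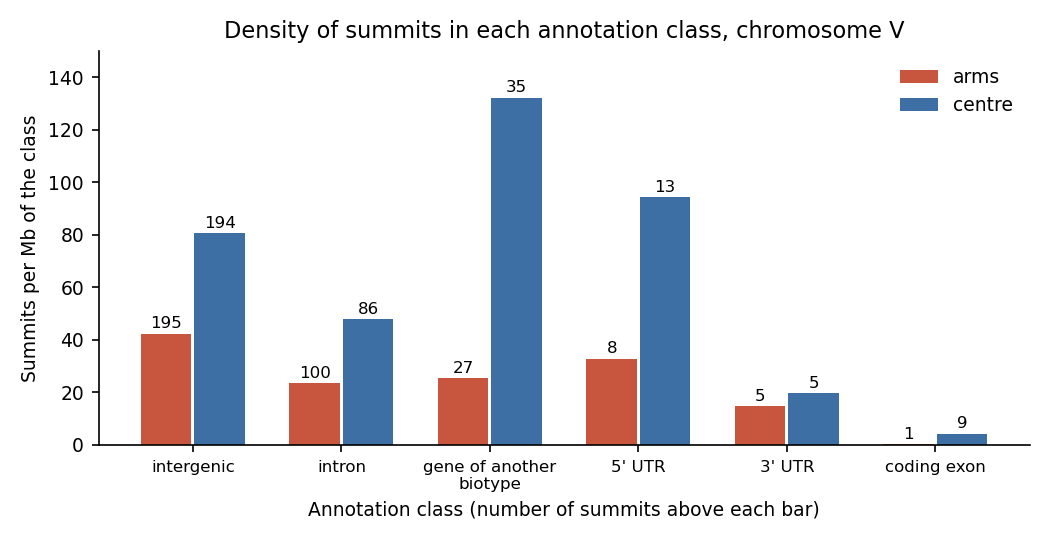
Summits per Mb of each annotation class on chromosome V, arms beside centre, with the number of summits above each bar. The arms are lower in every class, at 42.3 and 80.5 per Mb for intergenic sequence and 23.4 and 47.9 for introns.

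Distances to genes were also alike. The median distance from a summit to the nearest protein-coding 5′ end was 1357 bp in the arms and 1238 bp in the centre. Within 2000 bp lay 202 arm summits, 60.1% (54.7 to 65.4%), and 207 centre summits, 60.5% (55.1 to 65.7%). Upstream of that gene lay 73.5% of the arm summits, with 79.4% in the left arm and 66.7% in the right arm, and 68.7% of the centre summits.

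The sequence around summits was richer in G and C than its surroundings in both segments. In the 201 bp windows centred on summits, GC content averaged 42.2% in the arms and 41.0% in the centre. In windows of the same width 1000 bp to each side it was 36.4% and 35.5%, and in the whole segments 35.7% and 34.8%. Lower-case bases made up 25.7% of the summit windows of the arms and 21.9% of those of the centre, against 38.7% and 26.9% in the flanking windows.

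Runs of GA were more frequent at summits than in the flanks of both segments. The run GAGAGAGA, searched on both strands and shown above at pqn-51, aipl-1 and sphr-1, was in 43 arm windows, 12.8% (9.42 to 16.8%), and 30 centre windows, 8.77% (5.997 to 12.3%). It was in 1.93% and 1.46% of the flanking windows, and in 0.954% and 1.07% of all windows of that length in the arms and in the centre. Replicate 1 gave 14.2% and 8.45%, and replicate 2 gave 10.9% and 7.58%. The arms were higher in both, but the intervals of the segments overlapped.

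AT-rich homeodomain cores were less clearly set apart from the flanks. TAATNNNATTA, on both strands, was in 2 arm windows, 0.595% (0.0722 to 2.13%), against 1.49% of their flanks and 0.834% of all arm windows. Those were at tpan-1, with a signal of 435, and at C14B4.2, with 151, both in the right arm. In the centre it was in 9 windows, 2.63% (1.21 to 4.94%), against 1.46% of the flanks and 1.26% of all centre windows. The strongest of the 9 was at tag-196 with a signal of 393, followed by E02A10.3 with 287, and the others ranged down to F53F1.3 with 92.3. The replicates gave 0.885% and 0.912% in the arms and 2.33% and 2.33% in the centre, and the intervals of the segments overlapped in the optimal set. The shorter site TAATTA was in 9.82% of arm windows and 9.36% of centre windows, against 10.6% and 10.7% of the flanks. With 200 bp to each side the order turned, at 18.8% of arm windows and 17.8% of centre windows against 16.96% and 17.1% of the flanks. TATAAA was in 14.3% of arm windows and 14.9% of centre windows, below 20.8% and 20.2% of the flanks. A match is a description of these letters only, and its absence says nothing about binding.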

How the data were processed

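The deposited files were lists of peaks in narrowPeak format, with build and kind given per the deposited text files. The authors' optimal IDR set on ce11 was used, with the relaxed pooled and replicate lists made as its input, and the optimal ce10 list for counts alone. Which aligner and caller were used is not given in the sources used here. The deposited signal of each peak is the caller's own value, set against 1 control that was not analysed here. The deposited −log10 q value reached a ceiling in 77.7% of arm peaks and 79.8% of centre peaks and was not used for ranking. No read counts were used, so depth is unknown. Replicates are labelled as separate biological samples.

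Summits were the deposited start plus summit offset, given 1-based. Genes came from Ensembl release 115 of WBcel235, the same assembly as ce11, and sequence from the RefSeq copy of that assembly. Per replicate, the 4780 entries of highest signal were taken, and summits within 100 bp counted as shared. A summit in several annotation classes went to the first of 5′ UTR, coding exon, 3′ UTR and intron, then to genes of another biotype. The share of peaks in the arms was tested against length and gene starts with the exact binomial test, two-sided, over 6 chromosomes and 2 baselines, with Benjamini-Hochberg adjustment and a threshold of 0.05. All other values are descriptions with 95% exact Clopper-Pearson or Poisson intervals, which treat peaks or genes as independent and cover counting error only. The script was tested on simulated data.

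Genes named are the nearest to the 10 strongest peaks of the arms and of the centre, members of 19 gene lists with a peak in the arms, up to 3 per list in the centre, and unc-42, egl-3 and glr-5. Outside that rule, genes named for dense bins, several peaks, a motif, an annotation class or as the last of 4 list members (hlh-34) were chosen after their values were seen. The segments, members and lists were chosen with earlier results of these data known. Alternatives were each replicate alone, the upper part by signal, other boundaries, merged summits, the ce10 list and other distance limits. Python 3.11.15, pandas 2.3.3, NumPy 2.4.6, SciPy 1.17.1 and matplotlib 3.10.9 were used.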

Additional observations from a re-analysis of the deposited data

How the results depend on the processing

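The share of chromosome V peaks in the arms stayed below their share of length, past the exact binomial test, in every alternative run, at 49.0% to 49.7% without replicate 1 or replicate 2. The ratio of peaks per Mb, arms over centre, was 0.480 to 0.494 without a replicate, 0.432 for the upper part by signal (the stronger of 2 equal parts of the optimal set), 0.410 with arms as the outer 25% on each side, and 0.505 with summits under 500 bp apart merged. In unmasked sequence it was 0.572 and over the whole relaxed pooled list 0.890, both added after seeing the data. Per gene start the ratio was 0.540 to 0.556 without a replicate, and 0.487, 0.453 and 0.568 in the first 3 of those alternatives. It was 0.676 without the 7 family lists, also added after seeing the data.

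Genes with a peak in the arms and in the centre made up 5.32% to 5.57% and 9.90% to 10.3% without a replicate. The pairs were 2.88% and 5.73% with the upper part by signal, 4.19% and 7.45% at 1000 bp, 6.91% and 12.7% at 5000 bp, 8.01% and 16.1% with every gene in reach, 4.35% and 9.26% with the outer 25%, and, added after seeing the data, 7.46% and 11.6% without the families. The median signal ratio was 0.962 to 0.970 without a replicate, 1.01 with the outer 25% and 1.01 for intergenic summits, so its side of 1 turned, and the cause was not tested.

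Intergenic shares were 64.4% in the arms and 57.8% in the centre for the upper part by signal, and 56.3% to 58.4% in the arms and 56.0% in the centre without a replicate. For annotation, GC and motifs, the values without a replicate were added after seeing the data. With 200 bp to each side of the summit, GC was 39.7% in the arms and 38.9% in the centre, GAGAGAGA 18.5% and 13.5%, and TAATNNNATTA 1.19% and 4.68%. Without a replicate, GC was 41.98% to 42.1% and 40.7% to 41.2%, GAGAGAGA 10.9% to 14.2% and 7.58% to 8.45%, and TAATNNNATTA 0.885% to 0.912% and 2.33% to 2.33%. Peaks in both replicate lists made up 83.0% of the arms and 81.6% of the centre within 50 bp, and 99.7% and 100% within 500 bp. No paired analysis was possible because there was 1 group. Depth is unknown, so the limit it sets on weak peaks of either segment cannot be given.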
